A study of Homo sapiens with 8 samples.

Results

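The genes described here belong to the plasminogen activation and matrix proteolysis system of UM-RC-2, an established line of clear cell renal cell carcinoma that carries a mutation of the tumour suppressor VHL per the labels. They are 9 genes chosen by symbol: the plasminogen activators PLAU and PLAT, the receptor PLAUR, the serpin SERPINE2, the metalloproteinases MMP2 and MMP14, and the inhibitors TIMP1, TIMP2 and TIMP3. All 9 were found among the 43682 gene symbols of the RNA count files. RNA was sequenced from UM-RC-2 cells with a stably introduced VHL, or with what the labels call VEC, in 2 libraries of each, numbered replicate 1 and replicate 2. Lentiviral infection and blasticidin at 10 µg/ml were common to both groups, and both retain the mutant VHL gene of the line. The labels do not say whether each population was a clone or whether the replicates were separate cultures. The p-values thus measure a spread between these libraries that may be technical, and the test estimates it largely across genes. The comparison asked how these transcripts differed once VHL was re-expressed, and it was made within each replicate number; pair 1 and pair 2 below are the VEC and VHL libraries that share number 1 or number 2.

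Plasminogen is a circulating zymogen that urokinase (PLAU) and tissue plasminogen activator (PLAT) cleave to plasmin, a broad protease that degrades fibrin and other matrix proteins. PLAUR, a membrane-anchored receptor, holds urokinase at the cell surface, and SERPINE2, also called protease nexin-1, is a secreted serpin that inactivates urokinase, plasmin and thrombin. MMP14 is a membrane-bound matrix metalloproteinase that activates pro-MMP2, a gelatinase, in a complex in which TIMP2 acts as an adaptor. TIMP2 in excess inhibits both enzymes. In the kidney these proteins take part in matrix turnover, and in carcinoma they have long been studied in invasion.

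The libraries differed more by replicate number than by group. On the log2(CPM + 1) scale, where CPM is a count scaled to the library total, r over 21670 genes was 0.991 within pair 1 and 0.978 within pair 2. Replicates of VEC correlated at 0.502 and those of VHL at 0.531. Replicate 1 libraries held 21306867 (VEC) and 16230291 (VHL) counts, and replicate 2 libraries held 50027348 and 46609709. Pseudogenes took at most 2.07% of the counts in replicate 1 and at least 24.9% in replicate 2. VHL and CA9, a carbonic anhydrase gene induced by hypoxia-inducible factors, served as a check of the labels. VHL was higher and CA9 lower in the VHL library of both pairs, with log2 changes of 1.98 and 0.77 for VHL and of -5.38 and -5.41 for CA9. Of 10 markers of renal tubule and clear cell carcinoma, 9 had at least 10 counts in each library and KRT19 was at 0 throughout. These 10 summed to between 919 and 1807 CPM, most of it VIM (553.6 to 1352 CPM). The 7 fibroblast markers summed to at most 1.84 CPM and the 5 endothelial markers to at most 0.173 CPM, with COL3A1, FAP, PECAM1, CDH5, VWF and KDR at 0 in all 4 libraries. The 6 leukocyte markers summed to between 12.2 and 43.9 CPM, most of it CD68, and PTPRC was at 0 in replicate 1 and at 72 and 63 counts in replicate 2.

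Of the 9 genes, 7 passed the filter on low counts and were tested, and 0 of the 7 were called at a Benjamini-Hochberg adjusted p under 0.05 (edgeR quasi-likelihood test with the replicate number as a block, hereafter the blocked fit). Over all 24417 genes tested, 3.10% were called. At an unadjusted p under 0.05, 2 of the 7 passed (TIMP2 and PLAU), as did 3050 of all 24417 genes tested. Without the block, 0 of the 7 and 0.00% of all genes were called, and 0 of the 7 had an unadjusted p under 0.05. MMP2 and TIMP3 had too few counts to be tested. The median log2 change of the 7 tested genes was 0.20, beside -0.03 over all tested genes. Levels are given in CPM scaled by TMM, a normalisation that corrects for RNA composition, and are not corrected for transcript length, so they are compared between libraries and not between genes.

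**Figure D1:**
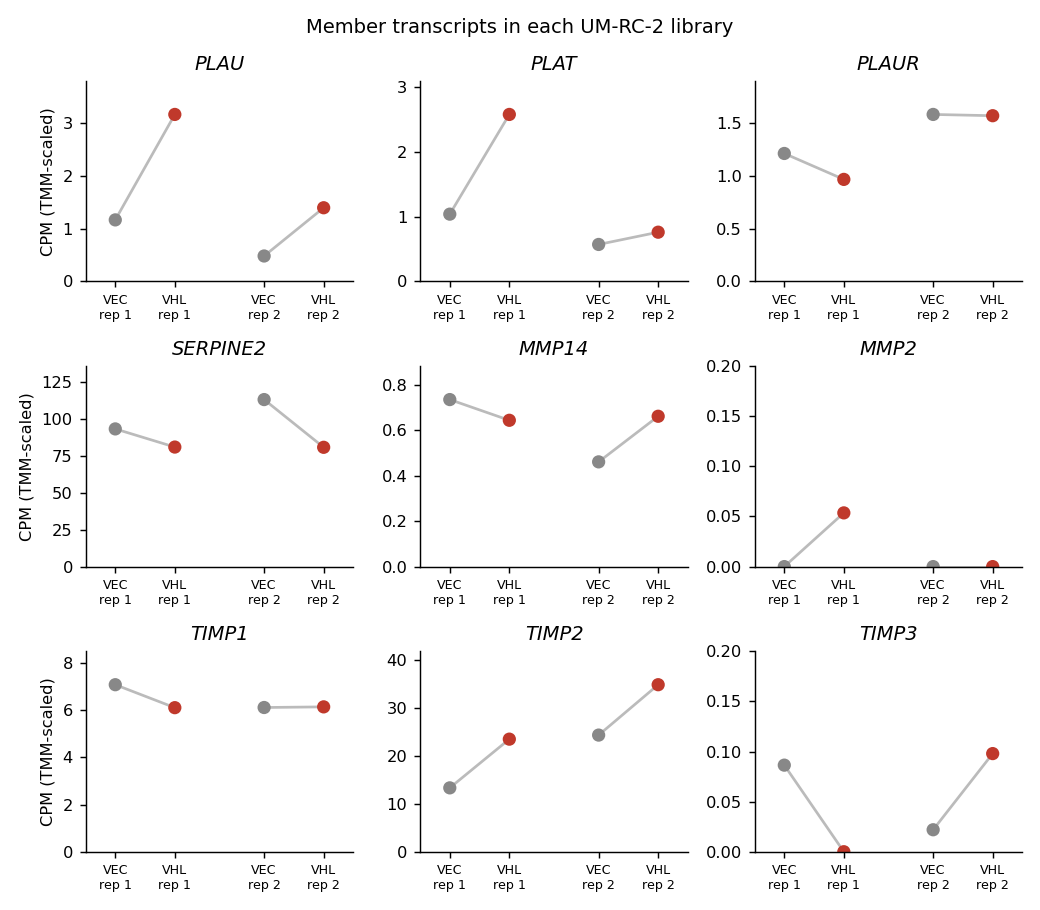
Level of each of the 9 genes (y axis, TMM-scaled CPM, starting at 0 and with its own scale in each panel) in the VEC (grey) and VHL (red) libraries of replicates 1 and 2 (x axis); each point is 1 library and lines join the libraries of a pair. PLAU is higher and SERPINE2 lower in both VHL libraries than in both VEC libraries, and MMP2 and TIMP3 lie below 0.1 CPM.

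The plasminogen activators had few reads, and both were higher in VHL within each pair. PLAU, which encodes urokinase, had 27 (VEC) and 59 (VHL) counts in pair 1, and 22 and 57 in pair 2. These correspond to 1.17 and 3.16 CPM in pair 1 and to 0.482 and 1.40 CPM in pair 2. Both VHL libraries thus lay above both VEC libraries, as they did for 4.47% of all tested genes. In bulk RNA, a change in the number of cells that express a gene and a change in RNA per cell cannot be told apart. The log2 change was 1.39 in pair 1, with a 95% Clopper-Pearson interval from 0.76 to 2.15 that covers counting error only, and 1.42 in pair 2 (0.80 to 2.31). The blocked fit gave 1.48 ± 0.53 (SE, n = 2 per group, edgeR), a 2.79-fold difference with a 95% interval from 0.43 to 2.53 on the log2 scale, and PLAU was not called (unadjusted p = 0.00560, adjusted p = 0.119, edgeR). Its call depended on which genes were tested beside it. The adjusted p was 0.0373 when protein-coding genes alone were tested, where 2.52% of genes were called higher, and 0.00743 among genes with at least 10 counts in every library, where 2.61% were called higher (both edgeR with the block). Over all alternatives it ranged from 0.00743 to 1 (edgeR).

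PLAT, which encodes tissue plasminogen activator, had 24 (VEC) and 48 (VHL) counts in pair 1, and 26 and 31 in pair 2. Its levels were 1.04 and 2.57 CPM in pair 1 and 0.570 and 0.759 CPM in pair 2. The VHL library of replicate 2 was below the VEC library of replicate 1, so the groups overlapped. The log2 change was 1.26 in pair 1 (counting interval 0.58 to 2.08) and 0.38 in pair 2 (-0.39 to 1.22), where it was within counting error. In the blocked fit PLAT differed by 0.87 ± 0.57 (SE, n = 2 per group; edgeR adjusted p = 0.620). Pair 1 carried most of this value, and without the VHL library of replicate 1 and without the block it was -0.078.

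PLAUR, the urokinase receptor, showed no difference beyond counting error in either pair. It had 28 and 18 counts in VEC and VHL of replicate 1 and 72 and 64 in replicate 2, or 1.21, 0.965, 1.58 and 1.57 CPM in that order. The groups overlapped, with log2 changes of -0.31 (counting interval -1.27 to 0.58) and -0.01 (-0.52 to 0.50). The blocked estimate was -0.14 ± 0.53 (SE, n = 2 per group; edgeR adjusted p = 0.985), with a 95% interval from -1.19 to 0.90. That interval leaves room for differences of about the size of 1 log2 unit in either direction. The log2 change of PLAU exceeded that of its receptor by 1.70 in pair 1 and by 1.43 in pair 2.

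SERPINE2 was the inhibitor with the most counts and the best measured of the 9 genes. It had 2164 (VEC) and 1514 (VHL) counts in pair 1, and 5173 and 3308 in pair 2. Its levels were 93.5 and 81.2 CPM in pair 1 and 113 and 80.99 CPM in pair 2. Both VHL libraries lay below both VEC libraries, as they did for 3.39% of all tested genes, and the VHL libraries were within 1 CPM of each other. Within pairs the difference was -0.20 on the log2 scale in pair 1 (counting interval -0.30 to -0.11) and -0.49 in pair 2 (-0.55 to -0.42). The counting intervals exclude 0 in both pairs and do not overlap each other. The blocked fit gave -0.35 ± 0.22 (SE, n = 2 per group, 95% interval -0.77 to 0.08), and SERPINE2 was not called (unadjusted p = 0.110, adjusted p = 0.579, edgeR).

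Set against SERPINE2 within a library, the activators were relatively higher in VHL in both pairs. The log2 change of PLAU exceeded that of SERPINE2 by 1.60 in pair 1 and by 1.91 in pair 2. For PLAT the excess over SERPINE2 was 1.47 and 0.86. These differences have no test, because they set chosen genes against each other with 2 libraries per group, and the activator counts, at most 59 in a library, limit their precision.

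The promoters of PLAU and SERPINE2 are shown because these are the activator and the inhibitor whose VEC and VHL libraries did not overlap. Sequences are from RefSeq on GRCh38.p14, the 250 bases before an annotated transcription start, 5′ to 3′. Capitals mark the letters ACGTG on either strand (CACGT when read on the printed strand), a form of the core of the hypoxia-response element. Hypoxia-inducible factors bind that element, and VHL targets their alpha subunits for degradation. TGANTCA, the element of AP-1 factors, which reads alike on both strands, was also searched. PLAU has 2 annotated starts, both shown, and SERPINE2 has 2, of which the one with a match is shown.
PLAU promoter, chr10:73910360-73910609, plus strand: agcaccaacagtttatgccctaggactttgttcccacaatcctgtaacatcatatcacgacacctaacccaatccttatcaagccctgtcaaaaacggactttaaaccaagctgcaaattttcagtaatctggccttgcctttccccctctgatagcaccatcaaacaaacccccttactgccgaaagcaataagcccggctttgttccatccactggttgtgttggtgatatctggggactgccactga
PLAU promoter, chr10:73910882-73911131, plus strand: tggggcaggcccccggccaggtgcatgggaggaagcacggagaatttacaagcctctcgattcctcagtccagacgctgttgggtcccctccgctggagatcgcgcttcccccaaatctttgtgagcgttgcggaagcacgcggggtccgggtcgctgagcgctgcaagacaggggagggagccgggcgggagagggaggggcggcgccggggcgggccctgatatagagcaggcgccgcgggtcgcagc
SERPINE2 promoter, chr2:224031479-224031728, minus strand: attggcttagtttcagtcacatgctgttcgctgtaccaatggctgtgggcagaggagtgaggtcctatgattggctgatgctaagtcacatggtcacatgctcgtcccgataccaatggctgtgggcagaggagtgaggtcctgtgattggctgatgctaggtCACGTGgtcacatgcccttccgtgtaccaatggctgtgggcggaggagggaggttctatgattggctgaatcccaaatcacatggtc

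Neither PLAU window held ACGTG or TGANTCA. The SERPINE2 window held CACGTG, a palindrome that counts as a match on each strand, overlapping by all but 1 base, with its first base 87 bases before the start. The other SERPINE2 start held neither motif. Of the 6 of 9 genes with an entry, ACGTG was also found in the windows of MMP14 (first base 96 bases before the start) and TIMP1 (231 bases before it), and TGANTCA in that of PLAUR (186 bases before it). TIMP3 held neither, and PLAT, MMP2 and TIMP2 were not matched. Over 35116 promoter windows of the same length, 18.5% held ACGTG and 6.57% held TGANTCA. The matches are a description of these letters, and other forms of the hypoxia-response core, such as GCGTG, were not searched.

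The metalloproteinases were near the limit of detection. MMP2 had 1 count in the VHL library of replicate 1 and 0 in the other 3 libraries. A count of 0 allows a level of up to 0.130 CPM in VEC of replicate 1, 0.0658 CPM in VEC of replicate 2 and 0.0734 CPM in VHL of replicate 2, taking 3 counts as the limit and counting error only. No change of MMP2 was detectable at this depth. MMP14 had 17 and 12 counts in VEC and VHL of replicate 1 and 21 and 27 in replicate 2, or 0.734, 0.643, 0.461 and 0.661 CPM. The groups overlapped, and the log2 changes of -0.18 (counting interval -1.39 to 0.96) and 0.47 (-0.36 to 1.42) had opposite signs. With the block the estimate was 0.20 ± 0.68 (SE, n = 2 per group; edgeR adjusted p = 0.985), with a 95% interval from -1.14 to 1.54. Changes of more than 1 log2 unit in either direction lie within that interval.

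Among the TIMPs, TIMP2, which both inhibits metalloproteinases and takes part in the activation of pro-MMP2, was higher in VHL within both pairs. It had 309 (VEC) and 439 (VHL) counts in pair 1, and 1112 and 1426 in pair 2. Its levels were 13.4 and 23.5 CPM in pair 1 and 24.4 and 34.9 CPM in pair 2. The VEC library of replicate 2 was slightly above the VHL library of replicate 1, so the groups overlapped although each pair was ordered alike. The log2 change was 0.82 in pair 1 (counting interval 0.60 to 1.03) and 0.52 in pair 2 (0.40 to 0.63). The blocked fit gave 0.66 ± 0.24 (SE, n = 2 per group, 95% interval 0.20 to 1.12), a 1.58-fold difference that was not called (unadjusted p = 0.00514, adjusted p = 0.115, edgeR). Over the alternatives the adjusted p ranged from 0.0569 to 1, and TIMP2 was called in none of them.

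TIMP1, a secreted inhibitor of most metalloproteinases, lay between 6.11 and 7.09 CPM in the 4 libraries. It had 164 and 114 counts in VEC and VHL of replicate 1 and 279 and 251 in replicate 2, or 7.09, 6.11, 6.12 and 6.15 CPM. The log2 changes of -0.21 (counting interval -0.57 to 0.14) and 0.0064 (-0.25 to 0.26) were within counting error. Its blocked estimate was -0.10 ± 0.33 (SE, n = 2 per group; edgeR adjusted p = 0.983), with a 95% interval from -0.74 to 0.54. TIMP3, an inhibitor that binds to the matrix, had 2 and 0 counts in replicate 1 and 1 and 4 in replicate 2. It was not tested, and no fold is given at such counts.

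**Figure D2:**
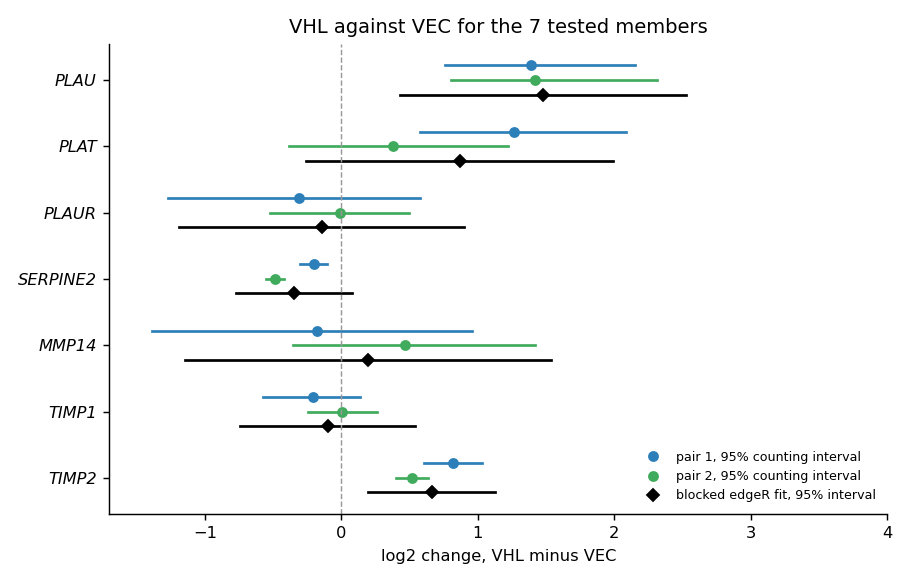
Log2 change, VHL minus VEC (x axis), of the 7 tested genes (y axis) in pair 1 (blue) and pair 2 (green), with 95% counting intervals, and in the blocked edgeR fit (black, 95% interval). PLAU and TIMP2 lie above 0 in both pairs and in the fit, and the interval of SERPINE2 in the fit reaches from -0.77 to 0.08.

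Proteases and inhibitors were then set side by side. The 3 tested proteases (PLAU, PLAT and MMP14) had a median log2 change of 0.87 in the blocked fit and the 3 tested inhibitors (SERPINE2, TIMP1 and TIMP2) a median of -0.10, a difference of 0.97. It was 1.47 in pair 1 and 0.46 in pair 2. No test was made of this difference, and it is not a property of all proteases or all inhibitors among the 9. MMP14 had log2 changes below those of TIMP2, with differences of -0.99 in pair 1 and -0.05 in pair 2. The protease median was PLAT in the blocked fit and in pair 1 and MMP14 in pair 2. The inhibitor median was TIMP1 in the blocked fit and in pair 2 and SERPINE2 in pair 1. With 3 genes on each side, each difference thus set a single protease against a single inhibitor. The value of 1.47 in pair 1 is the PLAT excess over SERPINE2 given above. TIMP2, with a log2 change of 0.66 in the blocked fit, set none of these medians. TIMP2 and SERPINE2 had changes of opposite sign in both pairs. Without the VHL library of replicate 1 and without the block the difference was 0.25, and without the VHL library of replicate 2 it was 1.80.

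Gaps between replicates of a group were also measured. The median size of the log2 gap between replicates was 0.61 in VEC and 0.57 in VHL for the 7 tested genes. Over all tested genes, which passed the same filter on counts, it was 2.00 and 2.04. Protein-coding genes made up 13908 of those 24417, and their gap was not measured apart. PLAU was lower in replicate 2 by 1.17 (VEC) and 1.15 (VHL) on the log2 scale, beside VHL differences of 1.39 and 1.42. TIMP2 was higher in replicate 2 by 0.87 (VEC) and 0.57 (VHL). SERPINE2 differed between replicates by 0.28 in VEC and by -0.003 in VHL. Whether the pseudogene share, the depth or another property of the replicate 2 libraries took part in these gaps was not tested.

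Genes with the most similar pair of changes were looked up among 9169 protein-coding genes with a mean of at least 10 CPM. The likeness was the distance between 2 genes in the plane of the 2 within-pair log2 changes, so it rests on 2 values per gene. Nearest to PLAU were ATP2B4 (1.32 and 1.47, distance 0.08), HLF (1.54 and 1.46, distance 0.15) and CSF1 (1.40 and 1.17, distance 0.25). Nearest to TIMP2 were SRGAP2C (0.81 and 0.54, distance 0.02), GSTM3 (0.78 and 0.51, distance 0.03) and TERF1 (0.84 and 0.56, distance 0.05). SRGAP2C is one of a set of near-identical gene copies, and its counts are uncertain. Among these 9169 genes, the nearest to PLAU were farther away than the nearest to TIMP2, and PLAU also had the larger changes in both pairs. PLAU itself had a mean of 1.55 CPM, below the limit of 10 CPM set for the genes it was compared with.

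The other genes of the pathway were taken from lists of 106 genes, of which 60 were tested and 5 were called in the blocked fit, all 5 lower in VHL and 0 higher. That is 8.33% of the tested list genes, beside 3.10% of all genes, of which 2.35% were called lower and 0.749% higher. Without the block 0 of the 60 were called and 0 had an unadjusted p under 0.05 (edgeR). The 5 were ENO1, LRP1, HPN, MMP24 and ADAMTS20, and each was called in every alternative with the block that gave it an adjusted p.

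Of the 23 other genes of the plasminogen system, 14 were tested, of which 3 were called lower and 0 higher. The median log2 change of the 14 was -0.21. LRP1, an endocytic receptor that clears complexes of urokinase or tissue activator with serpins, SERPINE2 among them, stood at 9.16 (VEC) and 4.29 (VHL) CPM in pair 1 and at 20.7 and 5.71 CPM in pair 2. The groups did not overlap, and LRP1 fell by 1.51 on the log2 scale (SE 0.30, n = 2 per group, adjusted p = 9.94e-05, edgeR). HPN, a membrane serine protease that can activate pro-urokinase, went from 29.0 to 10.5 CPM and from 12.3 to 5.41 CPM, and fell by 1.33 (SE 0.27, n = 2 per group, adjusted p = 0.000159, edgeR). Its VEC library of replicate 2 was above the VHL library of replicate 1, so both VHL libraries were below both VEC libraries. ENO1, a glycolytic enzyme that also binds plasminogen at the cell surface, went from 3718 to 1787 CPM and from 794.5 to 363.5 CPM, and fell by 1.09 (SE 0.31, n = 2 per group, adjusted p = 0.0205, edgeR). The groups of ENO1 overlapped because its level in replicate 2 was far below that in replicate 1. ENO1 and ANXA2 can share reads with processed pseudogenes, so their counts are uncertain.

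ANXA2 and S100A10, which form a plasminogen-binding complex at the cell surface, had log2 changes in the blocked fit of -0.36 and -0.44 and were not called (adjusted p = 0.653 and 0.345, edgeR). PLG itself, which encodes plasminogen, had 0 counts in both replicate 1 libraries and 66 and 90 counts in VEC and VHL of replicate 2.

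Of the 21 other metalloproteinases, 5 were tested and 16 did not pass the filter. MMP24, a membrane-type metalloproteinase, was the 1 called gene, at 14.95 (VEC) and 7.88 (VHL) CPM in pair 1 and at 3.903 and 1.59 CPM in pair 2. It fell by 1.10 on the log2 scale (SE 0.33, n = 2 per group, adjusted p = 0.0353, edgeR), with overlapping groups. Among the 30 ADAM and ADAMTS proteases, 19 were tested and 1 was called. This was ADAMTS20, a secreted protease of the versican-cleaving type, with 150 and 4 counts in VEC and VHL of replicate 1 and 69 and 0 in replicate 2 (log2 change -5.50, SE 0.72, n = 2 per group, adjusted p = 1.34e-11, edgeR). Of the 11 other inhibitors and activators, 9 were tested and 0 called, 1 of them with an unadjusted p under 0.05 (edgeR). Over all 24417 tested genes, 3050 had such a p. RECK, a membrane-anchored inhibitor of metalloproteinases, had log2 changes of 0.35 and 0.55 in the pairs (adjusted p = 0.605, edgeR). Of the 21 cathepsins and cystatins, lysosomal proteases and their inhibitors, 13 were tested and 0 called, 1 with an unadjusted p under 0.05 (edgeR). They had a median log2 change of -0.24. Of the 13 tested, 7 (53.85%) were lower in both pairs and 0 higher in both. Among all tested genes 35.9% and 22.8% were so placed, and among tested protein-coding genes 32.3% and 29.8%.

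**Figure D3:**
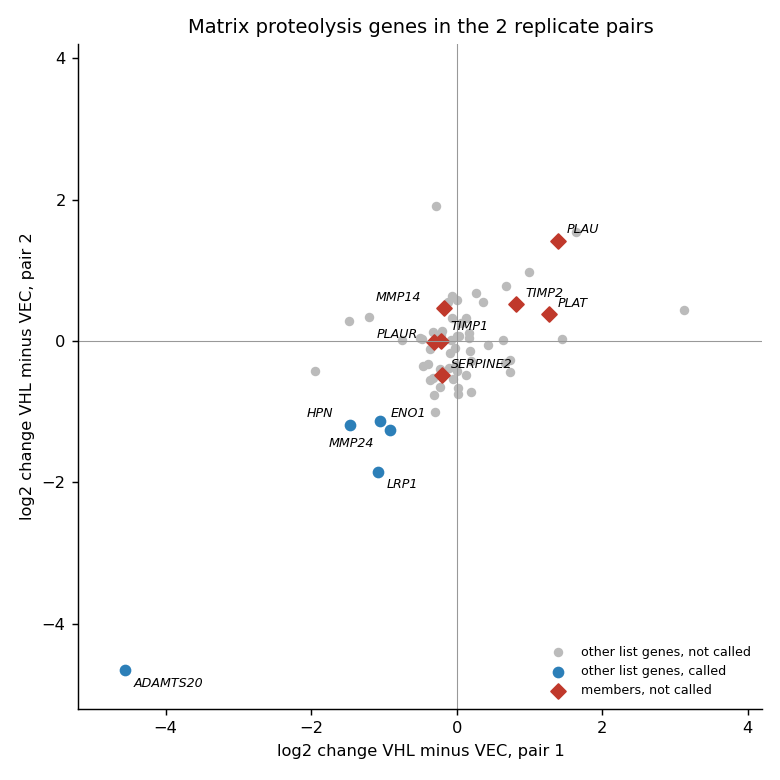
Log2 change, VHL minus VEC, in pair 1 (x axis) and pair 2 (y axis) for the 7 tested genes described here (red diamonds) and the 60 tested genes of the other lists (blue, called in the blocked fit; grey, not called). The 5 called genes lie in the lower left, while PLAU, PLAT and TIMP2 lie above 0 in both pairs.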

How the data were processed

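RNA libraries of UM-RC-2 cells expressing VEC or VHL were grouped by their titles, which also give the replicate numbers. The values are the authors' deposited raw counts per gene symbol from hg19 alignments, per the file headers. The sample titles also contain the term ChIP-seq and the description names an FPKM workbook, but the files hold whole numbers with totals that differ between libraries, and were taken as RNA-seq read counts here. The submitters' processing notes name featureCounts and HOMER without versions; annotation, strand and multi-mapping settings are not given in the sources used here. The H3K27ac tables name regions without positions and were not used.

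R 4.3.3 and edgeR 4.0.16 were used. Genes passing filterByExpr (24417) were scaled by TMM and tested with the quasi-likelihood F test (glmQLFit, glmQLFTest, two-sided), with replicate number and group as terms, 1 residual degree of freedom and Benjamini-Hochberg adjustment over all of them. The SE was derived from the log2 change and its F value. The quasi-likelihood test draws each gene's variance toward a trend over all tested genes. The SE is therefore not the gene's own spread between the pairs. Pair changes are log2 CPM differences with a prior count of 2. Same-numbered libraries deviated together (r = 0.983 across genes) and the form of the alignment name in the headers differs between the numbers; what the numbers stand for is not stated. The fit was tested on simulated data. Alternatives were group as the only term, DESeq2 1.42.0, its size factors, other filters, protein-coding genes alone (RefSeq classes, GRCh38.p14, 97.8% of symbols matched) and left-out libraries. A gene of the plasminogen system is not reported here. The genes, lists and tests were chosen with earlier results of these data known. Named beside the 9 genes are those of the other lists called with the same sign in both pairs, the label checks VHL and CA9, and the 3 genes nearest to each of the 2 genes with the smallest p. Genes named outside this rule (PLG, ANXA2, S100A10, RECK, ADAMTS4, ADAM33, ADAMTS17 and CTSS) were chosen after their values were seen. One residual degree of freedom and few counts limit the precision; counting intervals cover counting error only.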

Additional observations from a re-analysis of the deposited data

How the results depend on the processing

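The replicate block decided the calls. With group as the only term (no replicate block), 0 genes and 0 of the pathway list genes passed in edgeR, against 756 and 5 with it; 22 genes had an unadjusted p under 0.05 there. Leaving out any 1 of the 4 libraries without the block gave 0 called genes and 0 called list genes each time (edgeR). With the block, 1171 genes were called among those with at least 10 counts in every library and 1215 by the DESeq2 Wald test, and the number of the 9 genes called was 1 (PLAU) with that filter and 1 (PLAU) with protein-coding genes only. DESeq2 gave no adjusted p for PLAU, PLAT, PLAUR, MMP14, TIMP1, MMP24 or ADAMTS20. The protease minus inhibitor difference ranged from 0.25 to 1.80 when 1 library was left out.

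PLAU, TIMP2 and SERPINE2 kept their direction in all 12 alternatives. These reuse the same libraries and are not independent of each other. For PLAU and SERPINE2 the VEC and VHL libraries did not overlap, so leaving out 1 library left little room for a change of sign. Signs turned for MMP14 (-0.18 in pair 1 alone and 0.47 in pair 2 alone, -0.13 without VEC replicate 2), PLAT (-0.078 without VHL replicate 1), PLAUR (0.11 without VEC replicate 2, 0.17 without VHL replicate 1) and TIMP1 (-0.21 in pair 1 alone and 0.0064 in pair 2 alone, 0.0024 without VEC replicate 1). ENO1 (0.44) and MMP24 (0.28) turned without VEC replicate 1. Each of these fits that left out 1 library had no block, so replicate gaps enter its value by construction. Few counts limit PLAU, PLAT, PLAUR and MMP14, and MMP2 and TIMP3 cannot be compared at this depth.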

Other observations

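Several genes of the proteolysis lists were nearly absent from the replicate 1 libraries and well covered in replicate 2, whichever construct the cells carried. They were picked out after their values were seen. ADAMTS4, an aggrecan-cleaving protease, had 1 and 0 counts in VEC and VHL of replicate 1 and 4974 and 4496 in replicate 2. ADAM33 had 0 and 0 counts against 558 and 371, and ADAMTS17 had 0 and 0 against 627 and 591. CTSS, a cathepsin best known from antigen-presenting cells, had 7 and 8 counts against 1816 and 1564. With PLG, these were the 5 of 60 tested list genes whose log2 gap between replicates was over 4 in both groups, as it was for 7481 of all 24417 tested genes. None of the 7 tested genes of the main set had such a gap. The cause of the gap was not tested.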
